A study of Mus musculus with 4 samples.

Results

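The 5 genes described here encode the enzymes and the receptor of the extracellular adenosine and NAD pathway. They are Entpd1 (CD39), Nt5e (CD73), Cd38, Adora2a (the A2A adenosine receptor) and Ada (adenosine deaminase), and they were taken by name from the 32285 genes of the count tables, by a rule that used no measured value but was set with earlier results of these data known. ATP released in tumors is cut to AMP by CD39, and AMP is cut to adenosine by CD73. CD38 consumes NAD, and its products can feed the same AMP pool. Adenosine acts on T cells mainly through the A2A receptor, which raises cAMP and dampens T cell receptor signaling, and adenosine deaminase removes adenosine by turning it into inosine. CD39 and CD73 are known as surface enzymes of mouse regulatory T cells, and CD39 and CD38 as markers of exhausted CD8+ T cells in tumors.

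The study compared T cells from B16 melanomas of Vsir fl/fl CD4-Cre mice, called VISTA-KO, with those of Vsir fl/fl littermates without Cre, called WT. Both groups had received a vaccine of TRP2 peptide with CpG and R848 on day 3 after tumor inoculation and 100 μg of anti-CTLA-4 antibody on days 4 and 8, and tumors were taken on day 18 after treatment from mice that were 6 to 8 weeks old at inoculation. Tumors of each genotype were pooled, CD4+ and CD8+ cells were sorted, and each pool gave 1 gene expression library and 1 T cell receptor library. With 1 library per genotype no difference between genotypes could be tested. Every interval below is a 95% interval that covers counting error only, and neither the spread between mice nor that between libraries is in it. CD4-Cre deletes in T cells and leaves Vsir in the other cells of the tumor, so that both pools came from hosts with VISTA on myeloid cells.

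Barcodes were kept if 600 genes or more were detected and fewer than 30% of UMIs were mitochondrial, which left 10224 cells in the WT and 9946 in the VISTA-KO library. Kinds of cells were set by UMIs of a few genes. CD8 cells lacked Cd4 and carried Cd8a or Cd8b1 (5549 WT, 4350 VISTA-KO), and were split into those with a Pdcd1 UMI (3131 and 2261) and those without (2418 and 2089). Conventional CD4 cells had Cd4 without Foxp3 (1768 and 3048), regulatory cells had both (1528 and 1270), and 221 and 138 cells had at least 2 Siglech UMIs. Siglech is a marker of plasmacytoid dendritic cells, and these cells carried Irf8 at 2670 and 3107 CPM (UMIs of the gene scaled to 1e6 UMIs of the same cells), but 40.7% of the WT and 29.7% of the VISTA-KO ones also had a Cd3e or Cd3d UMI, so they were not free of T cell RNA. Of them 67 and 49 were also counted as CD8, 107 and 65 as conventional CD4 and 37 and 10 as regulatory cells. The libraries shared 145 cell barcodes. Median depth was alike in CD8 cells (4848 and 5224.5 UMIs) and differed in regulatory cells (8838.5 in WT, 5939 in VISTA-KO). A Cd8a or Cd8b1 UMI was found in 32.7% of WT and 20.9% of VISTA-KO conventional CD4 cells, and in 52.0% and 29.5% of regulatory cells, shares that were not thinned to equal depth. Values are therefore also given for stricter kinds, with no Cd8a, Cd8b1 or Siglech UMI in the CD4 and regulatory cells. RNA of the tumor cells was uneven too. The 5 listed melanoma genes summed to 10.5 CPM in WT and 200 in VISTA-KO CD8 cells, to 209 and 15.9 in conventional CD4 cells and to 5.63 and 194 in regulatory cells, none of them at 0. A melanoma UMI was found in few cells, in 2.04% of WT and 1.25% of VISTA-KO conventional CD4 cells. In regulatory cells the shares were 5.50% and 2.68%. The 7 macrophage genes summed to 138 and 74.6 CPM in regulatory cells. The part of the macrophage genes in the results was not tested, and values without the cells that had a melanoma UMI stand with the comparison of genotypes.

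Vsir, the targeted gene, was at 112 (WT) and 111 CPM (VISTA-KO) in CD8 cells, at 109 and 117 in conventional CD4 cells, at 112 and 117 in regulatory cells, and at 69.5 and 50.3 in Siglech cells. In the CD8, conventional CD4 and regulatory cells its RNA was thus not lower beyond counting error in the library labelled VISTA-KO. In conventional CD4 cells it was higher beyond counting error (ratio 1.08, 1.001 to 1.16). It was lower in Siglech cells (0.724, 0.543 to 0.957) and in the cells in none of these kinds (0.893, 0.799 to 0.999). The counts are per gene and do not show whether reads lay in the deleted exons, so they check neither the deletion nor the labels, and WT and VISTA-KO below name the libraries by their labels alone.

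Entpd1 (ENSMUSG00000048120, chr19:40612366-40741602, GRCm38.p6) was highest in CD8 cells with Pdcd1 and in regulatory cells. In the WT library it was at 59.7 CPM in CD8 cells with Pdcd1, 57.7 in regulatory, 40.3 in conventional CD4, 36.7 in Siglech cells and 30.2 in CD8 cells without Pdcd1. The first 2 in this order did not differ beyond counting error (ratio 1.04, interval 0.957 to 1.12), whereas regulatory cells exceeded conventional CD4 cells 1.43 times (1.28 to 1.60). In the VISTA-KO library the order was the same, with 89.0 CPM in CD8 cells with Pdcd1, 60.2 in regulatory, 38.0 in conventional CD4, 37.7 in Siglech cells and 33.2 in CD8 cells without Pdcd1. Here, CD8 cells with Pdcd1 stood above regulatory cells 1.48 times (1.34 to 1.63). Without the largest clone of each library (cells sharing a receptor sequence), CD8 cells with Pdcd1 held 64.0 CPM in WT and 83.1 in VISTA-KO. Regulatory cells then held 57.7 and 60.2. In both libraries the neighbors among the last 3 kinds did not differ beyond counting error. In stricter conventional CD4 cells Entpd1 was lower, at 25.3 CPM in WT and 33.1 in VISTA-KO, while stricter regulatory cells kept 60.8 and 63.2 CPM.

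Cd38 (ENSMUSG00000029084, chr5:43868809-43912374), the NAD-consuming ectoenzyme, was at 28.9 CPM in WT and 27.1 in VISTA-KO regulatory cells, the lowest of the 5 kinds, and highest in CD8 cells with Pdcd1 (51.5 and 73.9) and in Siglech cells (57.4 and 66.4), which did not differ from each other beyond counting error in either library. Conventional CD4 cells held 37.1 and 32.3 CPM and CD8 cells without Pdcd1 31.3 and 35.0. In WT the last did not differ from regulatory cells beyond counting error (1.08, 0.942 to 1.24), and in VISTA-KO the log2 difference of regulatory over conventional CD4 cells went from -0.22 to 0.0192 without dividing cells. The cells in none of these kinds were lower, at 19.5 and 17.7 CPM. In stricter kinds the regulatory level was 18.4 and 21.7 CPM and that of conventional CD4 cells 26.2 and 23.7.

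Nt5e (ENSMUSG00000032420, chr9:88327609-88372089), which makes adenosine from AMP, was higher in both CD4 kinds than in CD8 cells. Regulatory cells held 30.2 CPM in WT and 39.5 in VISTA-KO, conventional CD4 cells 28.9 and 25.4, CD8 cells without Pdcd1 15.4 and 16.1, CD8 cells with Pdcd1 8.69 and 7.59, and Siglech cells 4.69 and 1.40. In the WT library regulatory and conventional CD4 cells did not differ beyond counting error (1.04, 0.907 to 1.20), and in the VISTA-KO library regulatory cells were higher 1.56 times (1.35 to 1.79). In stricter kinds WT conventional CD4 cells (44.9 CPM) were above WT regulatory cells (38.5), and the VISTA-KO ones (29.5) below theirs (46.4). The cells in none of these kinds held 50.2 and 29.8 CPM. Stricter Siglech cells had no Nt5e UMI in either library.

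Adora2a (ENSMUSG00000020178, chr10:75316877-75334792) was nearly even across T cells. WT levels lay at 62.3 CPM in regulatory, 61.3 in CD8 cells with Pdcd1, 61.2 in conventional CD4 and 59.0 in CD8 cells without Pdcd1, and no neighbor in this order differed beyond counting error. VISTA-KO levels were spread wider, at 95.3, 80.0, 73.8 and 70.3 CPM in the same order, and only the last 2 did not differ beyond counting error. Siglech cells were lower, at 32.0 and 21.0 CPM, and those without Cd3e, Cd3d or Cd8b1 held 7.78 and 8.45 CPM, from 3 UMIs in each library.

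Ada (ENSMUSG00000017697, chr2:163726571-163750239) was low in all 5 kinds, between 4.12 CPM (WT CD8 cells with Pdcd1) and 7.99 CPM (VISTA-KO CD8 cells with Pdcd1), below the floor of 20 CPM set for comparing genes.

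**Figure D1:**
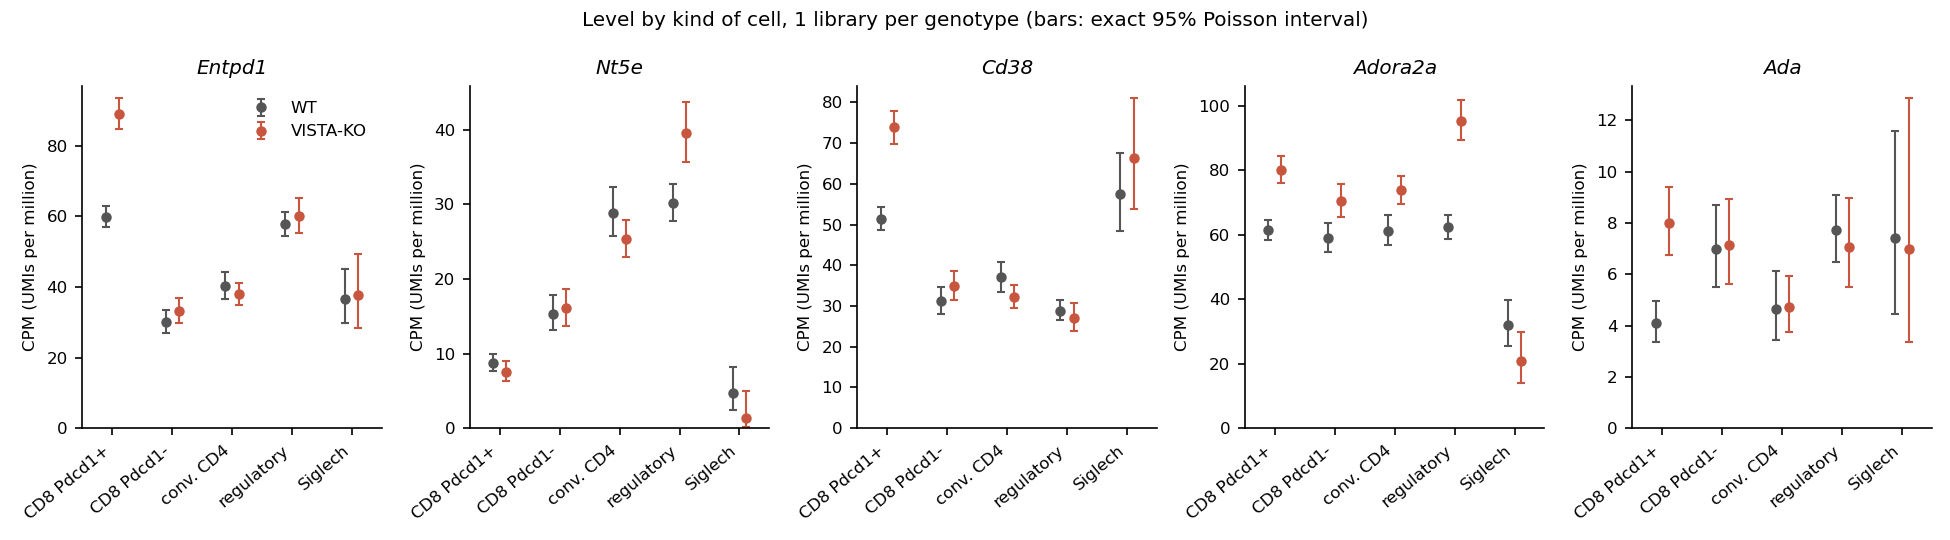
Level of each gene (CPM, linear axis from 0, a different scale in each panel) in 5 kinds of cells of the WT and VISTA-KO libraries. Points are UMIs summed over all cells of a kind and bars are exact 95% Poisson intervals: Entpd1 is high in CD8 cells with Pdcd1 (59.7 and 89.0), level with regulatory cells in WT and above them in VISTA-KO, Nt5e is high in both CD4 kinds, and Adora2a is level across the WT T cells.

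The share of cells with a UMI was compared after thinning each cell to 2000 UMIs, which left out 45 WT and 51 VISTA-KO regulatory cells and 104 and 66 CD8 cells with Pdcd1. Entpd1 was then seen in 11.1% (interval 10.03 to 12.3) of CD8 cells with Pdcd1 in WT and 15.2% (13.7 to 16.7) in VISTA-KO, and in 10.9% and 9.93% of regulatory cells. Unthinned, the regulatory shares were 39.8% and 30.8%, with the depth gap given above. CD8 cells with Ccr7 and without Pdcd1, which resemble naive cells and are not known to carry CD39, gave the background. Entpd1 was found there in 0 of 372 WT cells, which allows a share of up to 0.806%, and in 9 of 450 VISTA-KO cells (2%), with median depths of 5158 and 4885 UMIs. Adora2a was seen in 14.03% (12.3 to 15.9) of regulatory cells in WT and 17.7% (15.6 to 19.98) in VISTA-KO, and Nt5e in 7.55% and 7.88%. For Nt5e the Siglech cells served as background, with 3 of 220 cells in WT and 0 of 137 in VISTA-KO, which allows up to 2.19%. No kind of cell was taken to lack Cd38, Adora2a or Ada.

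The question between the genotypes was whether loss of VISTA in T cells went with another level of these genes. Differences were taken as log2 of (CPM + 5) in VISTA-KO over (CPM + 5) in WT, and a gene was counted when it passed 1.5-fold with at least 20 CPM in 1 library. None of the 5 genes did in the CD8, conventional CD4, regulatory and Siglech cells. Adora2a in regulatory cells, at a log2 difference of 0.58, was just short of the fold, and it passed at 0.69 without doublets, at 0.61 without the cells that had a melanoma UMI and at 0.61 with a pseudocount of 1 CPM. Entpd1 in CD8 cells with Pdcd1, at 0.54, passed at 0.59 when Pdcd1 was read after thinning, and Adora2a in Siglech cells, at -0.51, passed at -0.59 with a pseudocount of 1 CPM. The direction of the last turned without doublets (ratio 1.34, 0.634 to 2.82) and without dividing cells (1.11, 0.634 to 1.91). In stricter Siglech cells the Adora2a ratio was 1.09 (0.145 to 8.11). The 4 listed T cell genes summed to 1260 CPM in WT and 631 in VISTA-KO Siglech cells, and their part was not tested. Nt5e in Siglech cells, at -0.60, was under the floor. In the cells in none of these kinds, Nt5e was past the fold, at 50.2 CPM in WT and 29.8 in VISTA-KO (ratio 0.594, 0.487 to 0.722, log2 difference -0.67), as were 3.41% of all genes. These cells are a mixture. Their melanoma genes summed to 93.7 CPM in WT and 1164 in VISTA-KO, and their regulatory markers to 2266 and 2012. The gamma-delta T cell gene Trdc was at 23.0 and 70.0 CPM. The part of this mixture in the Nt5e difference was not tested. In CD8 cells 3 of the 5 passed the floor and 0 of these passed the fold, against 1.4% of all genes. The counts were 0 of 3 in CD8 cells with Pdcd1 (all genes 1.85%), 0 of 3 in CD8 cells without Pdcd1 (1.68%), 0 of 4 in conventional CD4 cells (3.28%), 0 of 4 in regulatory cells (3.84%) and 0 of 3 in Siglech cells (5.79%). Within these limits several lay far out among all genes. In CD8 cells with Pdcd1, Entpd1 was at percentile 98.9 of the log2 differences, Cd38 at 98.6 and Adora2a at 97.5. In regulatory cells Adora2a was at 98.0 and Nt5e at 94.2, and in conventional CD4 cells Adora2a was at 94.4. Toward the low end, Adora2a in Siglech cells was at 5.03, and in conventional CD4 cells Cd38 was at 18.2 and Nt5e at 21.0. These percentiles include the largest clonotypes, and none without them is given.

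Entpd1 was 1.49 times higher (1.39 to 1.60) in VISTA-KO than in WT CD8 cells with Pdcd1, a log2 difference of 0.54. In CD8 cells without Pdcd1 the ratio was 1.10 (0.945 to 1.28), and it was 1.04 (0.941 to 1.16) in regulatory and 0.942 (0.831 to 1.07) in conventional CD4 cells, where the stricter kind gave 1.31 (1.06 to 1.63). In CD8 cells without Pdcd1 the Entpd1 ratio was 1.27 (1.06 to 1.52) without dividing cells and 1.28 (1.06 to 1.54) in cells with at least 4000 UMIs. It was 1.08 (0.921 to 1.27) without doublets and 1.07 (0.909 to 1.26) without the largest clonotype of each library. Cd38 was 1.43 times higher (1.33 to 1.55) in CD8 cells with Pdcd1, and its ratio was 1.12 (0.965 to 1.30) in those without, 0.939 (0.806 to 1.09) in regulatory and 0.871 (0.763 to 0.995) in conventional CD4 cells. Leaving out conventional CD4 cells with Il2ra or Ikzf2, it was 1.01 (0.847 to 1.20) there. In CD8 cells without Pdcd1 the Cd38 ratio was 1.20 (1.01 to 1.42) without dividing cells and 1.15 (0.987 to 1.35) without doublets. It was 1.01 (0.868 to 1.19) without the largest clonotype of each library. Without the cells that had a melanoma UMI, the log2 differences in CD8 cells with Pdcd1 were 0.56 for Entpd1 and 0.50 for Cd38, against 0.54 and 0.48 with them. Both differences were smaller without the largest clones. The largest clonotype of the WT library held 1034 CD8 cells, 18.6% of them, and that of the VISTA-KO library 291, 6.69%. Without these clonotypes the ratio in CD8 cells with Pdcd1 was 1.30 (1.21 to 1.40) for Entpd1 and 1.23 (1.13 to 1.33) for Cd38, and in all CD8 cells it went from 1.34 to 1.16 for Entpd1 and from 1.31 to 1.11 for Cd38. Without any clonotype of 100 or more cells, both were at 1.22 in CD8 cells with Pdcd1.

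Adora2a was higher in the VISTA-KO library in all 4 T cell kinds. The ratio was 1.53 (1.40 to 1.67) in regulatory cells, 1.30 (1.21 to 1.40) in CD8 cells with Pdcd1, 1.20 (1.09 to 1.33) in conventional CD4 cells and 1.19 (1.07 to 1.33) in CD8 cells without Pdcd1. Without the largest clonotypes the ratio was 1.24 in all CD8 cells, against 1.26 with them. In stricter regulatory cells it was 1.53 (1.34 to 1.75), in stricter conventional CD4 cells 1.11 (0.976 to 1.27), and without doublets 1.66 in regulatory cells. The cells in none of the kinds showed no difference beyond counting error (0.975, 0.844 to 1.13), at 69.6 CPM in WT and 67.9 in VISTA-KO. Within regulatory cells, the markers of that kind moved with the difference, since Il2ra was at 133 and 203 CPM and Ikzf2 at 432 and 571, and all 6 listed regulatory markers summed to 3607 and 4503 CPM. Whether they bear on the Adora2a difference was not tested.

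Nt5e was 1.31 times higher (1.15 to 1.495) in VISTA-KO regulatory cells, and in stricter ones the ratio was 1.21 (0.997 to 1.46), not beyond counting error. It was at the same level in CD8 cells of both libraries within counting error (10.7 and 10.8 CPM, ratio 1.01, 0.866 to 1.17). Regulatory cells with the proliferation gene Mki67 held 23.1 CPM in WT and 37.5 in VISTA-KO, a ratio of 1.62 (1.28 to 2.06), and those without it 36.9 and 40.4, a ratio of 1.09 (0.9303 to 1.29). The median depth of those with Mki67 was 16486.5 UMIs in WT and 8803 in VISTA-KO, and the part of this gap was not tested. Without cells carrying Mki67 or Top2a the ratio was 1.03 (0.854 to 1.24). In conventional CD4 cells the ratio was 0.878 (0.756 to 1.02), in stricter ones 0.658 (0.551 to 0.788), and in those with at least 4000 UMIs 1.05 (0.866 to 1.28), where the direction turned. Ada in CD8 cells with Pdcd1 was at 4.12 CPM in WT and 7.99 in VISTA-KO (ratio 1.94), both under the floor.

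**Figure D2:**
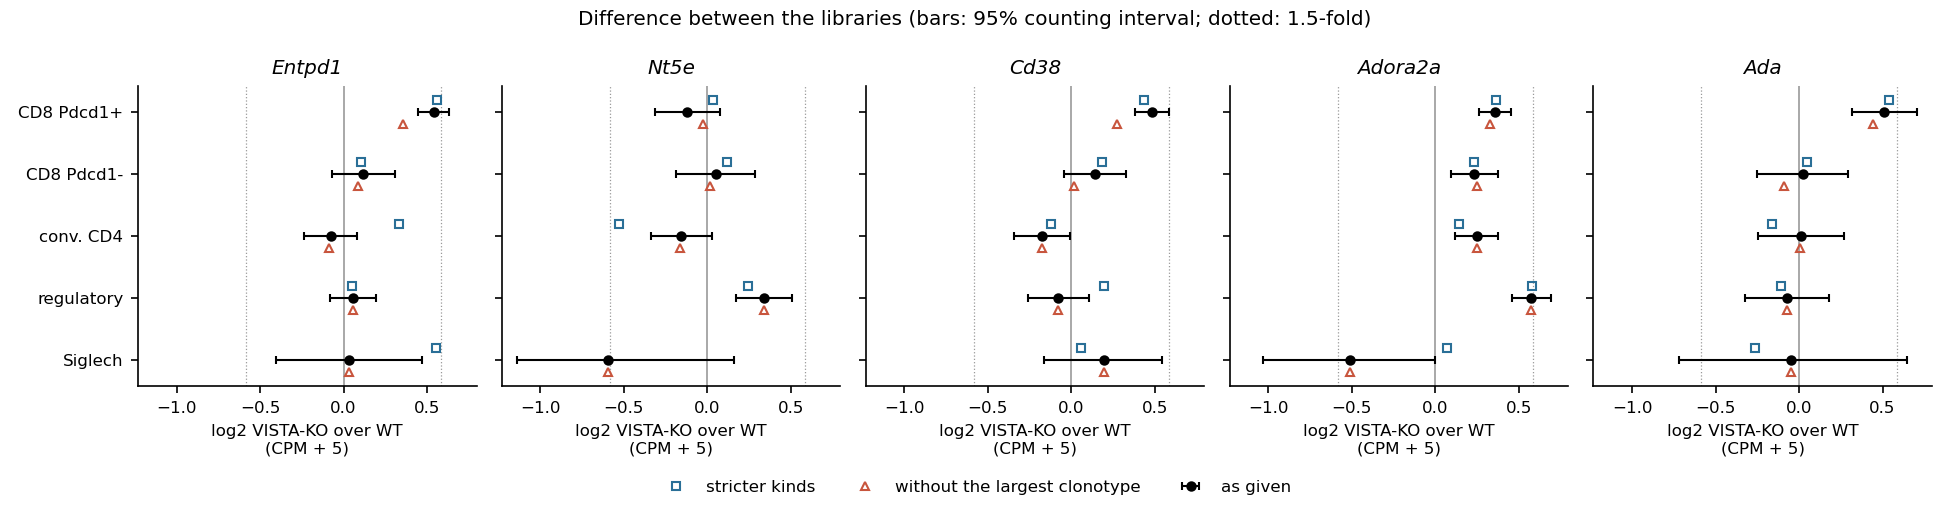
Difference between the libraries on the log2(CPM + 5) scale for each gene and kind of cell. Filled points are all cells with bars for the 95% counting interval, squares are the stricter kinds, triangles leave out the largest clonotype of each library, and dotted lines mark 1.5-fold; Adora2a lies to the right of 0 in all 4 T cell kinds, and the triangles of Entpd1 and Cd38 in CD8 cells with Pdcd1 lie closer to 0 than the filled points.

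Among CD8 cells with Pdcd1, Entpd1 and Cd38 were higher and Nt5e lower in those with the exhaustion marker Havcr2 than in those with Tcf7. Tcf7 marks less differentiated cells and Havcr2 (TIM-3) terminally exhausted ones. CD8 cells with Ccr7 and without Pdcd1 held Entpd1 at 1.79 CPM in WT (4 UMIs) and 9.18 in VISTA-KO (23 UMIs), and those with neither Ccr7 nor Pdcd1 held 37.3 and 40.6. Those with Pdcd1 and Tcf7 but no Havcr2 held 28.2 and 28.1 CPM, those with Pdcd1 and neither gene 58.1 and 85.0, and those with Pdcd1 and Havcr2 76.3 and 114. The Havcr2 subset held 2.70 times the level of the Tcf7 subset (2.28 to 3.22) in WT and 4.05 times it (3.24 to 5.11) in VISTA-KO. The libraries did not differ beyond counting error in the Tcf7 subset (ratio 0.996, 0.757 to 1.30) and did in the Havcr2 subset (1.49, 1.36 to 1.64). The Ccr7 subset was also higher in VISTA-KO, from the few UMIs given above. Values without the largest clonotypes are not given for these subsets. In all CD8 cells with Pdcd1, leaving those clonotypes out took the Entpd1 ratio from 1.49 to 1.30.

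Cd38 had a like order, with 8.50 and 12.4 CPM in the Ccr7 subset, 36.9 and 41.9 with neither Ccr7 nor Pdcd1, 31.4 and 32.4 in the Tcf7 subset, 57.8 and 83.0 in the subset with neither gene, and 56.5 and 82.1 with Havcr2. The last 2 subsets were thus close to each other, unlike for Entpd1. Nt5e ran the other way, from 21.9 and 22.3 CPM with Ccr7 to 13.7 and 14.1 with neither Ccr7 nor Pdcd1, 13.6 and 19.6 with Tcf7, 8.31 and 7.62 with neither, and 6.61 and 3.27 with Havcr2. In the Havcr2 subset it was at 0.167 times (0.103 to 0.266) the Tcf7 level in VISTA-KO and at 0.486 times (0.350 to 0.676) in WT. Nt5e was under the floor of 20 CPM in both of these subsets, in both libraries. Adora2a was lowest with Ccr7, at 39.4 CPM in WT and 37.9 in VISTA-KO, and lay between 56.7 and 66.2 CPM in the WT and between 72.2 and 84.8 CPM in the VISTA-KO subsets with Pdcd1. Depth differed between these subsets, with median UMIs of 10331.5 and 8364 with Havcr2 against 5418 and 5601 with Tcf7, and a cell with more UMIs is more often counted as having any 1 gene.

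**Figure D3:**
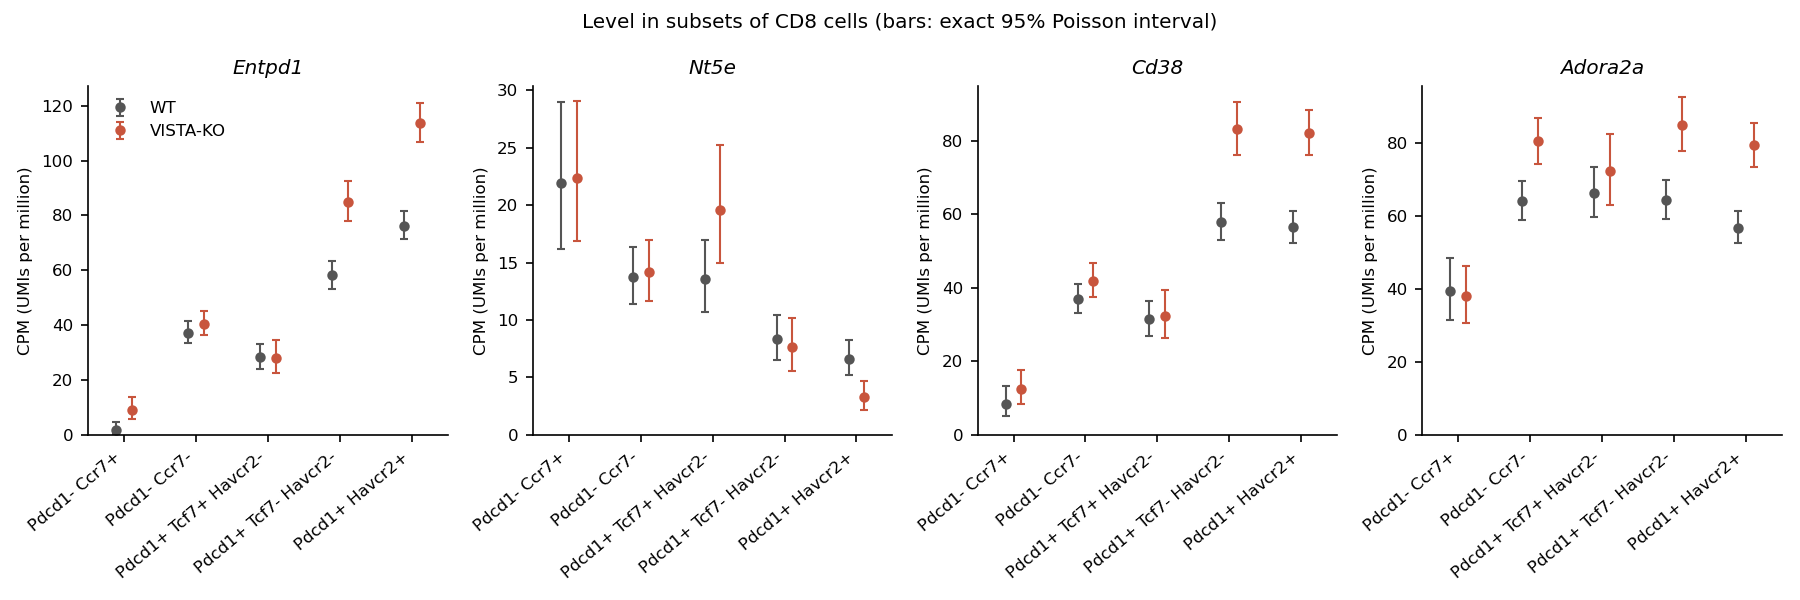
Level (CPM, linear axis from 0, a different scale in each panel) in 5 subsets of CD8 cells, ordered from Ccr7+ cells without Pdcd1 to Havcr2+ cells with Pdcd1, for the WT and VISTA-KO libraries with exact 95% Poisson intervals. Entpd1 is lowest in the first subset (1.79 and 9.18) and highest in the last (76.3 and 114), Nt5e the reverse (21.9 and 22.3 against 6.61 and 3.27), and Pdcd1- Ccr7- cells hold more Entpd1 than the Tcf7+ subset.

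The promoters of these 3 genes are shown because Entpd1 and Cd38 were higher in the CD8 subset in which Nt5e was lower. RefSeq gives 2 starts for Entpd1 and 1 each for Cd38 and Nt5e, and each stretch runs from 250 bases before to 50 after the start. Capitals mark matches, on either strand, to NFAT core GGAAAA, AP-1 TGANTCA, the cAMP response element core TGACG, the hypoxia response cores ACGTG and GCGTG, and the SP1 box GGGCGG. All lie on the forward strand of GRCm38.p6 at chr19:40612116-40612415, chr19:40659520-40659819, chr5:43868559-43868858 and chr9:88327359-88327658, in the order given.
Entpd1, first start: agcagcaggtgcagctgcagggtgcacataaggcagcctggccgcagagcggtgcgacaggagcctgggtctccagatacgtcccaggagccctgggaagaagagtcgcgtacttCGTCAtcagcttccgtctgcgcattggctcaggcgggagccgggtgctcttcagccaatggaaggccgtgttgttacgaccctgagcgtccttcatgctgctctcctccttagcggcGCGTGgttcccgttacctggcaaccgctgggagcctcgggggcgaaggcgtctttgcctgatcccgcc
Entpd1, second start: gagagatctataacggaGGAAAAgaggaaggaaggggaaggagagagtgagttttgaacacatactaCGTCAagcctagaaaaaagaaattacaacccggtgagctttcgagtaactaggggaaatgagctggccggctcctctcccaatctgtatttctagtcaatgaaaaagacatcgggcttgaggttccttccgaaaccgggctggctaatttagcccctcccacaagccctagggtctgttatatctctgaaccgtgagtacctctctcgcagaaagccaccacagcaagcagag
Cd38: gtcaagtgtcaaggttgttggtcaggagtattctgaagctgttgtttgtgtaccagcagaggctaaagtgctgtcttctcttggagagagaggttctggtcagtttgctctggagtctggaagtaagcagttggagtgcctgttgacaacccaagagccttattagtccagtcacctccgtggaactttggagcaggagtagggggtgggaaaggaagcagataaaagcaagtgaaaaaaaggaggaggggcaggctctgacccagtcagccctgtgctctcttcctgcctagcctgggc
Nt5e: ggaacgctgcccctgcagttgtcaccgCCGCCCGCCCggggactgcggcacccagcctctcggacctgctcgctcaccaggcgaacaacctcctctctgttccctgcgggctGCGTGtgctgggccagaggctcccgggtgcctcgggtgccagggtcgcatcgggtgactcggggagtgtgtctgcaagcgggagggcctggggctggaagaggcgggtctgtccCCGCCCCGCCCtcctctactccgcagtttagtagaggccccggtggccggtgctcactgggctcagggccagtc
The first Entpd1 start held 1 TGACG and 1 GCGTG, the second 1 NFAT core and 1 TGACG, Cd38 none of the 6, and Nt5e 1 GCGTG and 4 SP1 boxes, which overlap in pairs. A match is a description of the sequence, and the lack of one says only that these letters are not in this window. Among 32851 promoters of this length, 23.4% held the NFAT core, 7.81% the AP-1 motif, 20.8% TGACG, 19.6% ACGTG, 32.4% GCGTG and 35.7% the SP1 box. GC content was 64% and 48.7% for the Entpd1 starts, 51.7% for Cd38 and 71% for Nt5e.

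Clone size, which the kinds did not use, came from the receptor libraries. In CD8 cells whose clonotype had a single cell, Entpd1 was at 18.9 CPM in WT and 28.5 in VISTA-KO. It was at 52.2 and 67.8 with 2 to 9 cells and at 73.3 and 89.4 with 10 to 99, the last class over the first being 3.88 times (3.11 to 4.88) and 3.14 times (2.66 to 3.73). Nt5e went from 21.0 and 20.1 CPM down to 9.70 and 7.51 and then to 3.67 and 4.24. Cd38 went from 27.8 and 32.1 to 44.3 and 57.3 and then to 60.7 and 68.8.

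Clonotypes of 100 and more cells broke this order in WT, where Entpd1 was at 42.4 CPM, against 138 in VISTA-KO. Of these 1352 WT cells 1034 were of 1 clone, which held Entpd1 at 32.4 CPM (27.6 to 37.8), Cd38 at 22.8 and Nt5e at 11.01 CPM, and 61.6% of its cells had a Pdcd1 UMI. The rest were of the next WT clone, of 318 CD8 cells, which held 65.8 CPM of Entpd1, 74.7 of Cd38 and 2.35 of Nt5e. The largest VISTA-KO clone, of 291 CD8 cells, held 133 (119 to 149), 116 and 3.53 CPM, and the next, of 147 cells, 146, 98.0 and 3.71 CPM. These clones made up all 438 VISTA-KO cells of this size class. Over the 5 WT clones with at least 50 CD8 cells Entpd1 ranged from 32.4 to 133 CPM, and over the 3 VISTA-KO clones from 77.7 to 146, so the ranges overlapped. Adora2a ranged from 59.7 to 96.3 and from 64.3 to 87.6 CPM. Across the 4 size classes Adora2a in VISTA-KO lay between 72.4 and 86.9 CPM and in WT between 50.3 and 68.6. Size classes of 1 library are not replicates, and how many of all genes were apart in this way was not counted. CD8 cells without a clonotype held 60.4 and 67.0 CPM. The pools do not show from which mouse a clone came.

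**Figure D4:**
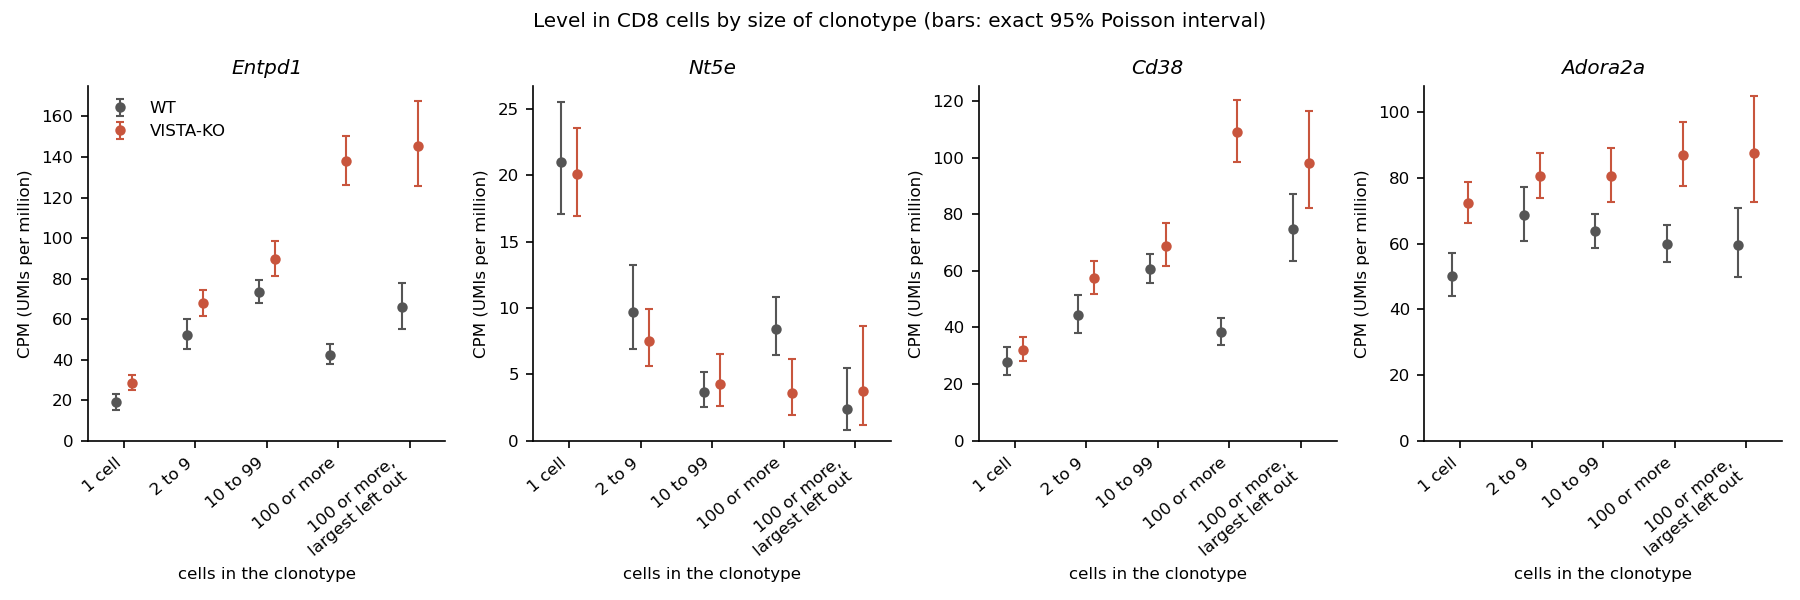
Level (CPM, linear axis from 0, a different scale in each panel) in CD8 cells by number of cells in their clonotype, for both libraries with exact 95% Poisson intervals, and last for clonotypes of 100 or more cells without the largest of each library. This last position is 1 clone in each library, of 318 WT and 147 VISTA-KO CD8 cells. Entpd1 and Cd38 are higher and Nt5e lower in larger clonotypes up to 99 cells, and the WT point at 100 or more moves from 42.4 to 65.8 CPM of Entpd1 when 1 clone is left out.

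CD39 and CD73 act in series, so cells carrying RNA of both enzymes were counted after thinning to 4000 UMIs. Such cells made up 2.23% (1.49 to 3.20) of regulatory cells in the WT library and 2.52% (1.62 to 3.72) in the other. They made up 0.768% and 0.643% of conventional CD4 cells, and 0.729% and 0.226% of CD8 cells. These shares are of cells with at least 4000 UMIs, and shallower cells were left out. They rest on 28 of 1257 WT and 24 of 954 VISTA-KO regulatory cells. The counts were 7 of 912 and 11 of 1711 in conventional CD4 cells, and 27 of 3704 and 7 of 3102 in CD8 cells. In regulatory cells a UMI of Entpd1 made no difference beyond counting error to the share with Nt5e, which was 11.8% (7.996 to 16.6) among WT cells with Entpd1 and 12.6% among the rest, and 13.04% (8.54 to 18.8) and 13.5% in VISTA-KO. In CD8 cells the share with Nt5e was 1.11% (0.446 to 2.27) among VISTA-KO cells with Entpd1 and 4.54% among the rest. In WT it was 4.71% (3.13 to 6.78) and 4.38%.

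Among subsets of regulatory cells, Entpd1 was at 56.2 and 58.3 CPM in those with the integrin gene Itgae and at 59.8 and 63.4 in those with neither Itgae nor Il1rl1 (the IL-33 receptor). The 38 WT and 80 VISTA-KO cells with Il1rl1 and no Itgae held 40.8 and 46.4 CPM, from 20 and 28 UMIs. Adora2a was lower in dividing than in other regulatory cells, at 55.6 against 68.6 CPM in WT and 75.8 against 104 in VISTA-KO. The VISTA-KO library was above the WT library in both, by 1.36 times (1.16 to 1.60) and 1.51 times (1.36 to 1.69). Of the regulatory cells, 460 WT and 268 VISTA-KO had Mki67. Among conventional CD4 cells those with Cxcr6, a receptor of cells that have settled in tissue, held more Entpd1 (46.0 and 42.6 CPM) than those with Ccr7 (7.51 and 11.8), and more Cd38 (38.8 and 36.7 against 11.3 and 3.27) and Adora2a (63.7 and 78.1 against 31.9 and 41.2). Nt5e did not differ between them beyond counting error (26.5 and 24.6 against 28.2 and 20.9 CPM).

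**Figure D5:**
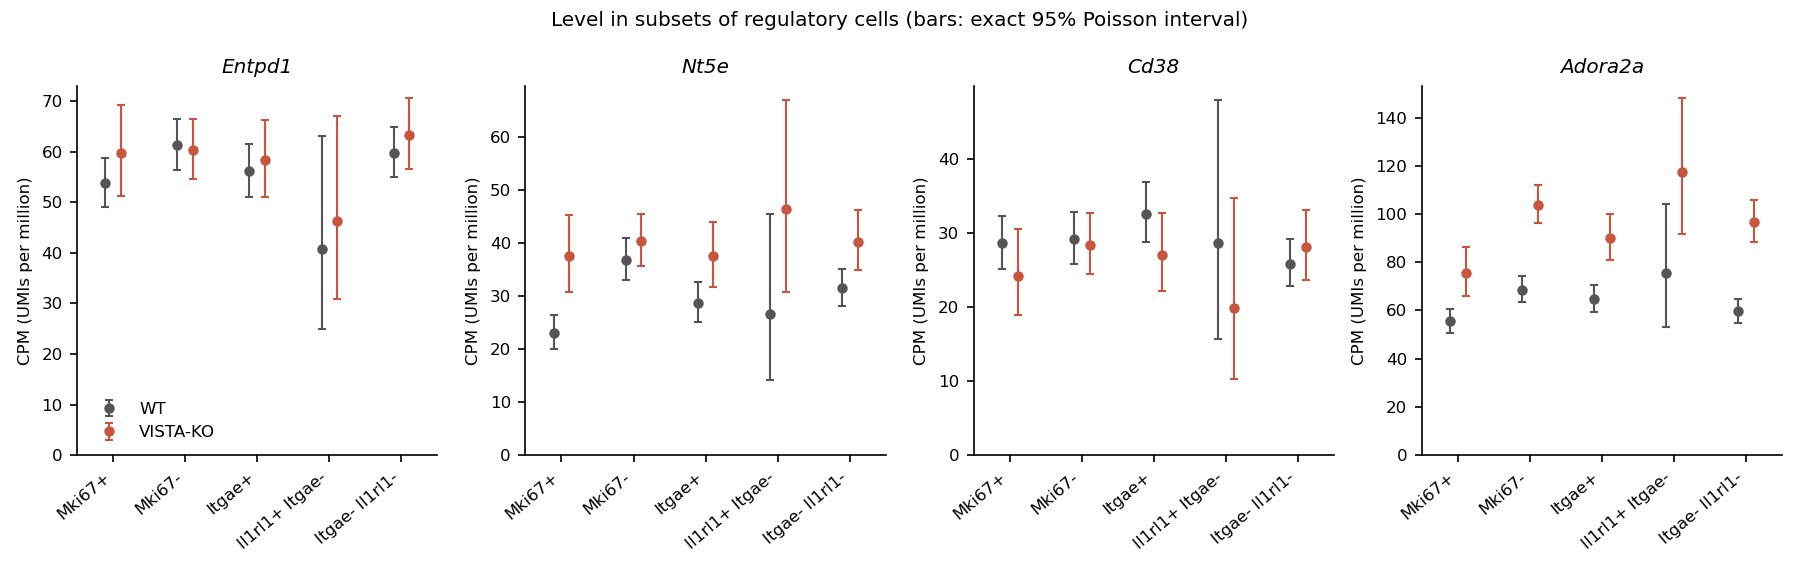
Level (CPM, linear axis from 0, a different scale in each panel) in subsets of regulatory cells of the WT and VISTA-KO libraries, with exact 95% Poisson intervals. The first 2 positions split the cells by Mki67 and the last 3 by Itgae and Il1rl1; Adora2a is higher in VISTA-KO in each subset, and the Nt5e libraries are apart in Mki67+ cells (23.1 and 37.5 CPM) and close in Mki67- cells (36.9 and 40.4).

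The wider pathway was read from a list of 87 genes in the tables, of which 34 to 38 reached 20 CPM depending on the kind. None passed 1.5-fold in CD8 cells, with or without Pdcd1. In regulatory cells 3 of 35 did, against 3.84% of all genes, and these 3 encode phosphodiesterases, which break down the cAMP made below the A2A receptor. Pde2a was higher in VISTA-KO (15.7 to 34.8 CPM, ratio 2.22, 1.89 to 2.61), while Pde3b (36.1 to 21.3, ratio 0.590, 0.502 to 0.691) and Pde7a (102 to 66.3, ratio 0.650, 0.593 to 0.711) were lower. Pde4b (ratio 1.00138, 0.928 to 1.08) and Pde4d (1.03, 0.935 to 1.13) did not differ beyond counting error. Pde3b and Pde7a were higher in CD8 cells, at 91.2 and 82.6 CPM and at 193 and 161. Cd8a and Cd8b1 summed to 857 CPM in WT and 389 in VISTA-KO regulatory cells. The part of this CD8 RNA in the differences was not tested, and no values for stricter kinds are given for the list. In conventional CD4 cells 1 of 38 passed the fold (all genes 3.28%), the nucleoside transporter gene Slc29a3, at 28.3 CPM in WT and 16.0 in VISTA-KO. Slc29a3 was at 121 and 123 CPM in Siglech cells, some of which were also counted as conventional CD4 cells. The 8 listed plasmacytoid dendritic genes summed to 1949 CPM in WT and 984 in VISTA-KO conventional CD4 cells. The part of such RNA in the Slc29a3 difference was not tested. In Siglech cells 2 of 37 passed the fold (all genes 5.79%), Pnp (73.8 to 113), which acts on inosine, and Pde3b (22.7 to 12.6). The 4 listed T cell genes summed to 1260 CPM in WT and 631 in VISTA-KO Siglech cells. Whether this T cell RNA bears on the Pde3b difference was not tested. The median log2 difference over the list was -0.01 in CD8 cells with Pdcd1 (all genes -0.02), -0.07 in conventional CD4 cells (-0.04), 0.04 in regulatory cells (-0.01) and -0.10 in Siglech cells (-0.02). In all CD8 cells and in those without Pdcd1 it was -0.04 and -0.03 (all genes -0.02 and -0.03).

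The gene with most UMIs over all cells is given for each role, for CD8 and then regulatory cells, WT before VISTA-KO. Entpd5, a gene of the Entpd family listed with the ectonucleotidases by its name, was at 22.4 and 20.4 CPM and at 15.7 and 16.4. Where its enzyme acts was not tested. Art2b, an NAD-consuming ADP-ribosyltransferase of the T cell surface, was at 7.85 and 11.1 and at 7.21 and 14.9, under the floor. Adora2b, another adenosine receptor gene, was at 0.614 and 0.563 and at 1.42 and 1.04 CPM. P2ry10, a receptor gene of the P2Y family, was at 72.9 and 61.3 and at 120 and 136. Aprt, which salvages adenine, was at 211 and 209 and at 205 and 163, and Sirt2, an NAD-dependent deacetylase, at 106 and 93.4 and at 126 and 111. Gnas, the stimulatory G protein that couples A2A to adenylate cyclase, was at 892 and 867 and at 920 and 823. Hif1a, the hypoxia regulator that can raise Nt5e, was at 207 and 195 in CD8 cells and at 484 and 595 in regulatory cells.

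Patterns were also compared with all genes over 8 profiles (4 T cell kinds in both libraries), which share their libraries, as a description with no test. Among 6835 genes with at least 20 CPM in a profile, Nt5e was most like P2rx4 (Pearson r 0.997), an ATP-gated channel of the same pathway list, then Trib1 and Crtc3. The profiles left out Siglech cells, in which P2rx4 was at 50.8 CPM in WT and 51.0 in VISTA-KO and Nt5e at 4.69 and 1.40. Entpd1 was most like Prpf18 (0.983), Psmb9 and Hnrnpl, Cd38 most like Setbp1 (0.977), Nsun2 and B4galt5, Adora2a most like Gbp6 (0.9402), Sap18 and Tmem140, and Ada most like Ipcef1 (0.857), Smim24 and Snx6. Between the 5 genes themselves Nt5e and Cd38 were the most opposed (-0.84) and Entpd1 and Cd38 the most alike (0.61).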

How the data were processed

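Gene expression and T cell receptor reads of single cells came from 1 pool of tumors per genotype. The authors ran Cell Ranger 5.0.0 against GRCm38 references. The deposited values are UMI counts, for each gene in each called barcode and for each receptor contig, without normalization. The labels speak of both 3′ and 5′ libraries, and the methods name a kit for V(D)J profiling. Seurat 4, named in the submitters' processing notes, was not used here.

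The libraries held 10337 WT and 10085 VISTA-KO barcodes with 72098984 and 59916814 UMIs. UMIs were summed per library and kind of cell and divided by all UMIs of those cells. The pseudocount was 5 CPM. Ratios have exact conditional binomial intervals, levels exact Poisson and shares Clopper-Pearson intervals, at 95%, for counting error only. The limit given for a count of 0 is 3 counts, in place of the Clopper-Pearson bound. Intervals of log2 differences combine the Poisson intervals of both counts. Thinning drew UMIs without replacement. Stricter kinds are CD8 cells with 2 or more Cd8a and Cd8b1 UMIs and none of Cd4, Foxp3 or Siglech, CD4 kinds with none of Cd8a, Cd8b1 or Siglech, and Siglech cells with none of Cd3e, Cd3d or Cd8b1. Clonotypes joined the V gene and junction nucleotides of the productive alpha and beta chains with most UMIs. Doublets were kept. Scrublet in scanpy 1.11.5 called 1 WT and 0 VISTA-KO cells by its own threshold, so the alternative without doublets left out cells above percentile 92 of their library's score or with 2 or more beta chains, 1047 WT and 1140 VISTA-KO cells. The scripts were tested on simulated counts. Analyses used Python 3.11.15, numpy 2.4.6, scipy 1.17.1 and pandas 2.3.3. Gene positions and promoters are RefSeq's on GRCm38.p6. All 5 genes matched by symbol. Adora2a has no promoter shown.

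Named were the 5 genes, pathway genes past 1.5-fold with at least 20 CPM, the gene with most UMIs in each role, the 3 genes most like each member, Vsir and cell type markers. Members and lists were chosen with earlier results of these data known. Alternatives changed the pseudocount, kinds, doublets, clonotypes, dividing cells, totals, weights, depth and filters. Leaving out clonotypes of 100 and more cells, or cells with melanoma UMIs, was added after seeing the data. Art2a, on the pathway list, was not used here.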

Additional observations from a re-analysis of the deposited data

Results flagged for a closer look

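Cd38 differed in direction between kinds of cells. It was 1.43 times as high in VISTA-KO as in WT CD8 cells with Pdcd1 and 0.871 times as high in conventional CD4 cells, with the counting interval off 1 in both. With 1 library per genotype the difference between the kinds was not tested. In stricter conventional CD4 cells the ratio was 0.905 (0.726 to 1.13), in those without Il2ra or Ikzf2 it was 1.01 (0.847 to 1.20), so that the opposite direction was gone, and without the largest clonotypes that in CD8 cells with Pdcd1 was 1.23.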

How the results depend on the processing

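Every value is from 1 library per genotype, so none measures the spread between mice, and genes under about 20 CPM rest on few UMIs. No paired analysis was possible because each genotype has 1 gene expression library. The log2 differences of VISTA-KO over WT that left the counting interval of the reported value in CD8, conventional CD4 and regulatory cells follow, and the causes were not tested. In CD8 cells Entpd1 was 0.20 without the largest clonotypes and 0.12 without clonotypes of 100 and more cells, and Cd38 was 0.14 and 0.13, and 0.21 as a mean over cells. CD8 cells with Pdcd1 are given as ratios. Without the largest clonotypes Entpd1 there was 1.30, against 1.49 (1.39 to 1.60), and Cd38 1.23, against 1.43 (1.33 to 1.55). Without clonotypes of 100 and more cells both were 1.22. In conventional CD4 cells Entpd1 was 0.33 in stricter kinds and 0.19 without dividing cells. Nt5e there was -0.53 in stricter kinds, -0.40 without dividing cells, 0.061 in cells with at least 4000 UMIs and -0.53 as a mean over cells. Cd38 there changed sign, to 0.00933, without cells with Il2ra or Ikzf2. In regulatory cells Nt5e was 0.038 without dividing cells and Cd38 0.19 in stricter kinds. Ada in CD8 cells was 0.54 with a pseudocount of 1 CPM and 0.15 with 20. Over all 5 genes and all kinds, 344 of 374 such alternative values stayed within the interval. This count is no measure of stability, because some alternatives take out few or no cells of a kind. The interval is also wide where UMIs are few, as for Ada and in Siglech cells. Between kinds in the VISTA-KO library, Entpd1 in regulatory over CD8 cells changed sign to 0.0496 without clonotypes of 100 and more cells and to 0.0146 as a mean over cells, and Cd38 in regulatory over conventional CD4 cells to 0.0192 without dividing cells. Genes past 1.5-fold, with no filter and with at least 100 CPM, numbered 158 and 32 in CD8 cells, 203 and 35 with Pdcd1, 233 and 39 without, 391 and 72 in conventional CD4, 410 and 92 in regulatory and 973 and 79 in Siglech cells.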
